A study of Saccharomyces cerevisiae with 12 samples.

Results

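The VPS13-D716H mmm1Δ double mutant of Saccharomyces cerevisiae was set against wild type (WT), to show which transcripts differed from WT when the deletion of MMM1 was combined with the VPS13-D716H allele. Each side was 1 library, the double mutant and WT replicate 2, which were 2 of the 12 libraries of the series and stood in the same table of 7 libraries. Values are FPKM, fragments scaled to transcript length and to the mapped fragments of the library, and each ratio is log2 of (FPKM + 1) in the double mutant over (FPKM + 1) in WT. Of 6660 genes listed, the 6216 with a mean FPKM of at least 5 in the 2 libraries were compared. With 1 library a side there was no test, no p-value and no measure of the spread between cultures, so "higher" and "lower" below describe these libraries.

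All strains were in the BY4741 background, a haploid MATa laboratory strain. Per the protocols in the labels, cells of every YPD library were harvested while growing exponentially (OD600 0.8 to 1) in this rich glucose medium. WT has the genotype WT. The double mutant has both the VPS13-D716H allele, a point change in Vps13, and the mmm1Δ deletion. The other libraries of the table are VPS13-D716H, mmm1Δ replicate 2, sam37Δ, VPS13-D716H sam37Δ and AFT1-C291F, all grown in YPD too. WT replicate 1, mmm1Δ replicate 1 and mdm34Δ are in another table, and WT in clean YPD, alone or with 100 µM of the iron chelator BPS for 4 hours, are in the last. The labels do not say how many clones or cultures stood behind a library.

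Mmm1 is a subunit of ERMES, the complex that ties the endoplasmic reticulum to mitochondria in budding yeast and moves lipids between them. Vps13 is a large lipid transfer protein at contacts of the vacuole, endosomes and mitochondria, and dominant point alleles of VPS13 are known to improve the growth of cells that lack ERMES. Mitochondria make the iron-sulfur clusters by which the activators Aft1 and Aft2 sense iron. A shortage of clusters lets Aft1 activate the iron regulon, whose products take up siderophore-bound and free iron, release iron from the vacuole and save iron in metabolism. Glucose, in turn, represses respiration and the use of other carbon sources, and supports the making of ribosomes.

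Promoter windows are shown for 3 genes of the iron regulon, the group that the title of the series concerns, and for HSP12 and NOG2, which stand for the general stress and ribosome biogenesis lists. Each is bases 350 to 51 before the annotated start codon, 300 bases, written 5′ to 3′ on the strand of the gene, from the RefSeq sequence of assembly R64. Capitals in the first 3 mark TGCACCC, a site for Aft1 and Aft2, on either strand. In HSP12 they mark AGGGG, the stress response element (STRE) of Msn2 and Msn4. In NOG2 they mark GATGAG, the PAC element, and AAAATTTT, the RRPE element, which were chosen after the values were seen. FIT3 is from chrXV:1061106-1061405, minus strand, FIT2 from chrXV:1059181-1059480, plus strand, FET3 from chrXIII:388472-388771, plus strand, HSP12 from chrVI:106906-107205, plus strand, and NOG2 from chrXIV:723163-723462, minus strand.
FIT3: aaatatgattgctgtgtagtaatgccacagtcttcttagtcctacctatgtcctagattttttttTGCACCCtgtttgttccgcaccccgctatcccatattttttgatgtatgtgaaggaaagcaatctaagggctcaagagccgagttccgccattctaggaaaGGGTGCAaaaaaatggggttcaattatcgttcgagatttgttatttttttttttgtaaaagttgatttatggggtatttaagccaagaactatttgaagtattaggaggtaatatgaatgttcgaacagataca
FIT2: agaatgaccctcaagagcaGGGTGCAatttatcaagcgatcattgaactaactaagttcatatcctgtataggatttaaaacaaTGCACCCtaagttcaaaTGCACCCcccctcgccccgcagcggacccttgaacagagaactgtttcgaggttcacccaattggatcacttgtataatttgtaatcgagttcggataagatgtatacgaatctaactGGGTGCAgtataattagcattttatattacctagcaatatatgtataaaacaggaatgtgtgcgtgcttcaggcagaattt
FET3: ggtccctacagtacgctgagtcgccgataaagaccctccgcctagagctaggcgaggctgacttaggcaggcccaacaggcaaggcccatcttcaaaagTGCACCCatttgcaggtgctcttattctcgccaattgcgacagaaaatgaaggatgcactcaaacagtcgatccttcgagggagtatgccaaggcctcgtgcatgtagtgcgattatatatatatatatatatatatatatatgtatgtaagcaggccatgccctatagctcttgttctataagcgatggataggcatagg
HSP12: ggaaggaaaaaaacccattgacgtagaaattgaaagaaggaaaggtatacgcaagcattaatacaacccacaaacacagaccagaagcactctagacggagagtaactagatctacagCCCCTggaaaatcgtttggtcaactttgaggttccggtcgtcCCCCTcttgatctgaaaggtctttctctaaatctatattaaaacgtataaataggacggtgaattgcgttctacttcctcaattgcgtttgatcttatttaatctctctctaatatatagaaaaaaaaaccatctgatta
NOG2: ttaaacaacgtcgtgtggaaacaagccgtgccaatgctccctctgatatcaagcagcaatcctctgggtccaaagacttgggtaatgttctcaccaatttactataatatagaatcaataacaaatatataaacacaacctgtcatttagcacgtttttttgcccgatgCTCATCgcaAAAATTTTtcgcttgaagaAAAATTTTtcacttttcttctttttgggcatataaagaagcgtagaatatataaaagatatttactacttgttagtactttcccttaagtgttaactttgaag

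TGCACCC was in the window of 16 of the 30 genes of the iron regulon list (53.3%), against 1.40% of all 5984 windows. FIT2 holds it 4 times, FIT3 2 times and FET3 1 time, and these genes lay at very different ratios, as given below. The shorter CACCC, which every TGCACCC contains, was in 27 of the 30 genes, against 21.6% of all windows. The motifs were searched on both strands, and a match is a description of these letters, not evidence of binding. The list was drawn up as genes under Aft1 and Aft2, so a high share of their site follows from that choice.

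Deleted MMM1 was listed at 0 in the double mutant and in mmm1Δ replicate 2, and was at 37.6 FPKM in WT and 36.0 in VPS13-D716H, so these labels and this gene go together. VPS13 was at 4.92 in WT, 5.32 in VPS13-D716H, 5.09 in mmm1Δ replicate 2 and 9.34 in the double mutant, a log2 ratio of 0.81, with AFT1-C291F above it at 13.7. The D716H change itself cannot be read from expression. The auxotrophic markers LEU2 and MET17 were listed at 0 in the double mutant and URA3 was at 0.324 FPKM. Genes used by MATa cells, such as STE2, the α-factor receptor, at 658 FPKM in WT and 473 in the double mutant, were present in both.

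In all, 726 genes (11.7%) were at least 2-fold higher in the double mutant than in WT and 719 (11.6%) at least 2-fold lower, with a median log2 ratio of 0.00 over the 6216 genes. These shares are the background for the counts of each list over WT below. At 4-fold, 176 (2.83%) were higher and 209 (3.36%) lower. The single mutants lay nearer to the same WT library. In mmm1Δ replicate 2, 533 (8.57%) were higher and 416 (6.69%) lower of 6222, and in VPS13-D716H 136 (2.21%) were higher and 129 (2.09%) lower of 6160. Of the genes called here, 498 of the 726 and 536 of the 719 were at least 300 nt long and alone at their locus. The others are less certain, since short genes have unstable FPKM values and the sources used here do not say whether strand was used at shared loci.

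Beyond WT, the double mutant stood apart from its whole table. It was at least 2-fold above each of the other 6 libraries in 267 genes (4.24% of 6293) and at least 2-fold below each in 344 (5.47%). For AFT1-C291F these counts were 248 and 278, for mmm1Δ replicate 2 66 and 27, and for WT, VPS13-D716H, sam37Δ and VPS13-D716H sam37Δ between 2 and 26. Against VPS13-D716H in place of WT, 819 genes (13.1%) were higher and 755 (12.1%) lower of 6229. Past 2-fold from both control libraries in the same direction were 582 higher and 555 lower genes of 6173. Both ratios use the same double mutant library, so this overlap is in part built in and is not independent support. The WT library itself was the highest of the other 6 for several genes that glucose represses, so values with VPS13-D716H are given beside those genes. In bulk samples such as these, fewer cells that carry a transcript and less of it per cell cannot be told apart. Cytosolic ribosomal protein genes held 48.9% of the length-weighted FPKM in WT and 33.6% in the double mutant; scaling without them shifts the median gene to a log2 ratio of -0.16.

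**Figure D1:**
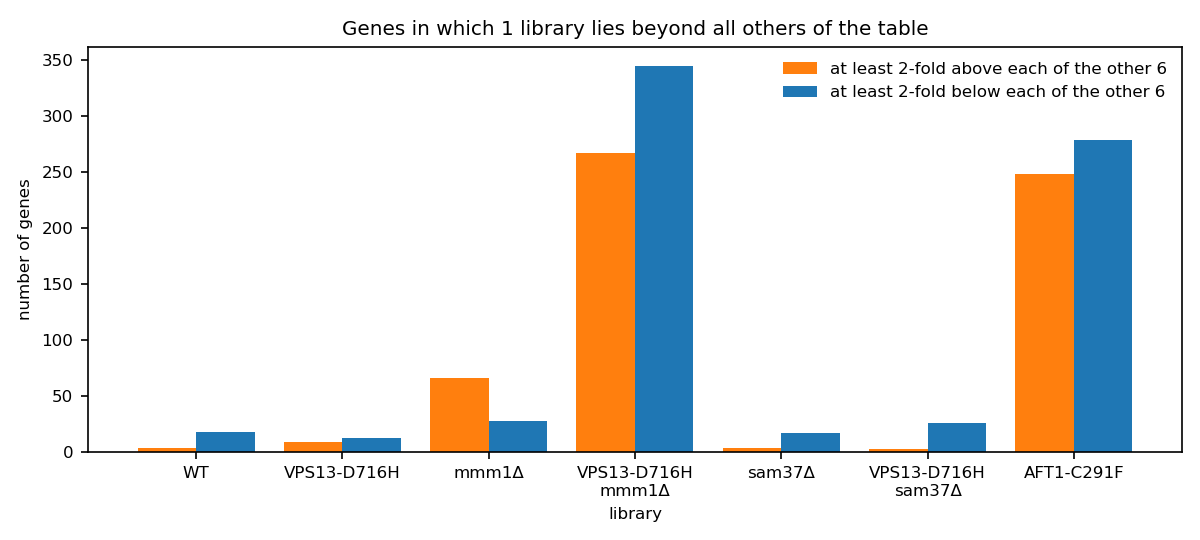
Number of genes (vertical axis) in which each library of the table, on the horizontal axis, lay at least 2-fold above (orange) or below (blue) each of the other 6 libraries, of 6293 genes. The double mutant, with 267 and 344 genes, and AFT1-C291F, with 248 and 278, stand far above the other 5 libraries.

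The iron regulon was partly higher in the double mutant than in WT and far below its level in mmm1Δ. Of 30 genes listed, 27 were compared, 9 of these were at least 2-fold higher, none was 2-fold lower, and 24 had a ratio above 0. Their median log2 ratio was 0.71, against 0.00 for all genes. In mmm1Δ replicate 2 over the same WT library the median was 1.95, and in VPS13-D716H over WT it was 0.41. These 3 comparisons share the WT library. None of the regulon genes was at least 2-fold beyond each of the other 6 libraries in the double mutant.

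FIT2 and FIT3, which code for cell wall mannoproteins that hold siderophore iron, were far above WT. FIT3 was at 52.5 FPKM in WT, 81.7 in VPS13-D716H, 2405 in the double mutant and 18121 in mmm1Δ replicate 2. FIT2 was at 74.1 in WT, 96.9 in VPS13-D716H, 1760 in the double mutant and 13131 in mmm1Δ replicate 2. Both were thus near WT in VPS13-D716H, high in the double mutant and higher still without Mmm1 alone, with log2 ratios of 5.49 for FIT3 and 4.55 for FIT2 in the double mutant. FIT1, the other mannoprotein of this kind, was at 2.85 in WT and 5.07 in the double mutant, too low to be compared, against 228 in mmm1Δ replicate 2.

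The 4 transporters of siderophores, which carry chelated ferric iron into the cell, spread widely. SIT1 was at 8.35 FPKM in WT, 26.8 in VPS13-D716H, 39.0 in the double mutant and 333 in mmm1Δ replicate 2, a log2 ratio of 2.10 for the double mutant. ENB1, the enterobactin transporter, was at 51.3, 84.3, 122 and 594 in the same order, a ratio of 1.24. ARN2 was at 13.9, 19.5, 56.2 and 806, a ratio of 1.94, and shares its locus with another gene. ARN1 was at 23.8, 33.3, 30.7 and 499, a ratio of 0.36, so that the double mutant lay between WT and VPS13-D716H. For SIT1 and ENB1 the control matters: over VPS13-D716H the log2 ratios were 0.52 and 0.53.

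High-affinity uptake of free iron was close to WT. The list of high-affinity iron uptake and copper supply had a median of 0.01, with 0 of 6 genes past 2-fold. Over VPS13-D716H its median was -0.70, and 3 of 6 genes were at least 2-fold lower, where 12.1% of all genes were. FET3, the multicopper ferroxidase, was at 118 FPKM in WT, 268 in VPS13-D716H, 207 in the double mutant and 596 in mmm1Δ replicate 2. FTR1, the iron permease that works with Fet3, was at 127, 292, 98.9 and 633 in the same order. The double mutant was below VPS13-D716H in both, and its log2 ratios over WT were 0.81 for FET3 and -0.35 for FTR1. FRE1, a surface metalloreductase, was at 14.1 in WT, 37.9 in VPS13-D716H, 8.59 in the double mutant and 43.1 in mmm1Δ replicate 2, so the double mutant was the lowest of the 4. ATX1, the copper chaperone that feeds Fet3, was at 349 in WT and 677 in the double mutant, a ratio of 0.96. CCC2, which loads copper into the secretory pathway, had a ratio of 0.27, and the other reductases of the list, FRE3, FRE4, FRE5 and FRE6, had ratios from -0.03 to 0.59. FRE2 was at 3.19 and 3.22 and was not compared.

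For iron stored in the vacuole and moved within the cell, all ratios were under 2-fold. They were 0.96 for SMF3, a vacuolar iron exporter, 0.80 for FTH1, the permease of the vacuole, 0.14 for its partner FET5, 0.71 for COT1, a vacuolar metal transporter, and 0.68 for MRS4, an iron carrier of the mitochondrial inner membrane. The scaffold gene ISU1, on which iron-sulfur clusters are built, was at 474 in WT, 557 in the double mutant and 1352 in mmm1Δ replicate 2, and shares its locus. VHT1, the biotin transporter, and AKR1, a palmitoyl transferase, had ratios of 0.36 and 0.46. BNA2, of NAD synthesis, was at 5.01 in WT and 4.37 in the double mutant, below the level compared.

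Members that save iron or whose function is less known were among those past 2-fold. LSO1, a small protein gene that iron starvation induces, was at 1.47 FPKM in WT, 2.05 in VPS13-D716H, 60.2 in the double mutant and 1787 in mmm1Δ replicate 2, a log2 ratio of 4.63. It is shorter than 300 nt. TIS11, also called CTH2, whose product destroys mRNAs of iron-using proteins, was at 7.73, 10.8, 34.5 and 243 in the same order, a ratio of 2.02. ECM4, a glutathione transferase gene, was at 13.3 in WT, 9.48 in VPS13-D716H, 70.2 in the double mutant and 73.9 in mmm1Δ replicate 2, so that the double mutant and mmm1Δ lay close together. HMX1, the heme oxygenase, was at 16.1, 11.0, 34.5 and 15.5, with the double mutant the highest of the 4 and a ratio of 1.05.

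Over VPS13-D716H, which carries the same allele with MMM1 intact, 7 of the 27 regulon genes were at least 2-fold higher (13.1% of all genes were) and 2, FRE1 and FTR1, were lower (12.1% of all genes were). The median log2 ratio was 0.29. The 7 were FIT3, FIT2, LSO1, ECM4, TIS11, HMX1 and ARN2. The iron and heme regulators, AFT1 and AFT2 among them, had a median ratio of 0.02 over WT, and 0 of 14 were past 2-fold. Over WT replicate 1, in a table normalized separately and centred on its median gene, the regulon's median was 0.093, with FIT3 at 2.64, FIT2 at 1.35, LSO1 at 2.32, SIT1 at -0.086 and TIS11, the median gene, at 0.093, so the distance of the regulon from WT depends on the WT library.

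**Figure D2:**
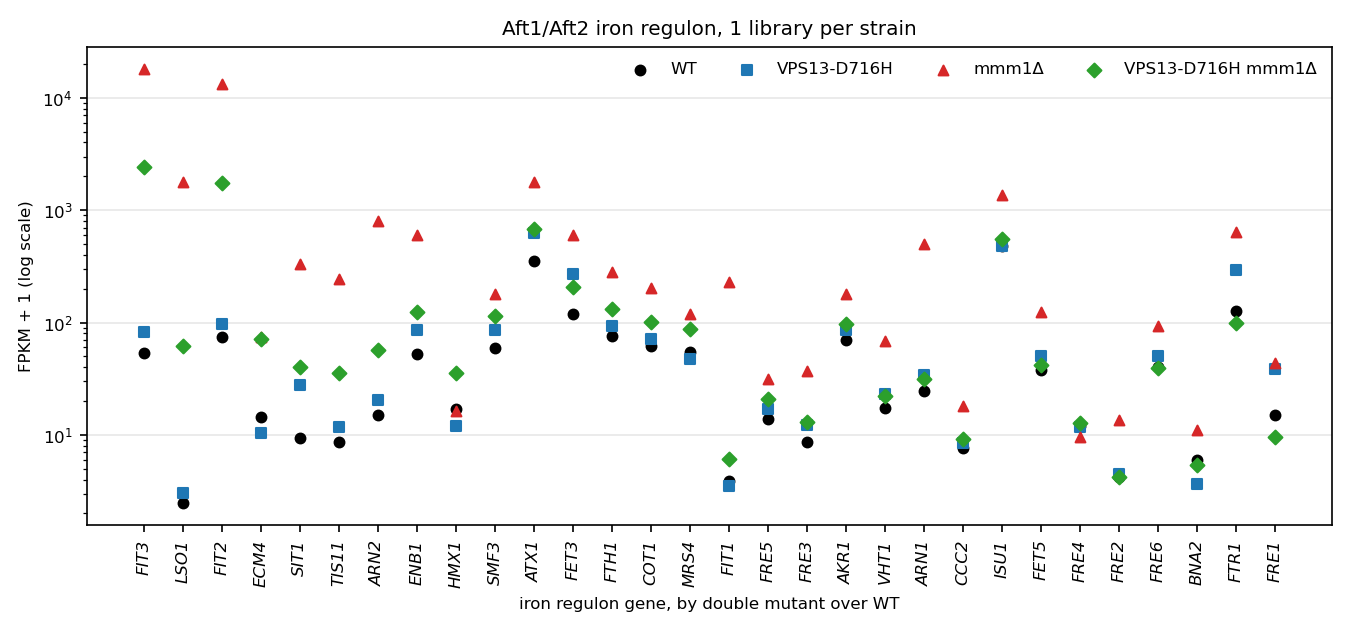
FPKM + 1 on a log scale (vertical axis) of the 30 listed genes of the iron regulon, ordered by the ratio of the double mutant to WT, in WT (circles), VPS13-D716H (squares), mmm1Δ replicate 2 (triangles) and the double mutant (diamonds), 1 library each. FIT3, LSO1 and FIT2 lie far above WT in the double mutant, and most diamonds lie near the circles while most triangles lie well above them.

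Genes that are reduced when iron is short were not lower as a group. Of 28 genes for iron-sulfur and heme enzymes, 7 were higher and 7 lower, with a median log2 ratio of -0.12, while in mmm1Δ replicate 2 1 was higher and 16 were lower. BIO2, the iron-sulfur enzyme of biotin synthesis, was at 109 FPKM in WT, 77.4 in VPS13-D716H, 101 in the double mutant and 23.5 in mmm1Δ replicate 2. The 7 lower genes included TYW1, a tRNA-modifying enzyme with an iron-sulfur cluster, at 77.0 in WT and 22.8 in the double mutant, and the sterol genes ERG3, ERG25 and ERG11, with ratios from -1.20 to -1.16. The 7 higher genes included CYC7, CTT1 and SDH2, described below. Heme synthesis had 0 of 8 genes past 2-fold and a median of -0.03. Of 23 genes for cluster assembly 2 were lower, where 11.6% of all genes were. They were ATM1, the cluster-related exporter of the mitochondrial inner membrane, at 22.2 in WT and 9.06 in the double mutant, and TAH18, of the cytosolic pathway, at 26.0 and 6.18.

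Respiratory genes were higher in the double mutant than in WT and in the other libraries. All 28 genes of the respiratory chain list had a ratio above 0, 16 were at least 2-fold higher, none was lower, and the median log2 ratio was 1.16. In 14 of the 28 the double mutant was 2-fold above each of the other 6 libraries. SDH1, the flavoprotein subunit of succinate dehydrogenase, was at 81.3 FPKM in WT, 42.7 in VPS13-D716H, 21.6 in mmm1Δ replicate 2 and 291.4 in the double mutant. SDH2, its iron-sulfur subunit, was at 268, 184, 92.0 and 855 in the same order. COX26, of cytochrome c oxidase, was at 529, 109, 51 and 2876. COX26 is a short gene of 201 nt, so its values are less certain. In all 3 genes the double mutant was the highest of the 4 and mmm1Δ the lowest, and the log2 ratios over WT were 1.83, 1.67 and 2.44. CYC7, the second isoform of cytochrome c, was at 128 in WT and 1050 in the double mutant. CYC1, the main isoform, named here after its values were seen, was at 426 and 481, well within 2-fold.

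The tricarboxylic acid cycle had 11 of 15 genes higher and a median of 1.06, with CIT1, citrate synthase, at 175 FPKM in WT, 163 in VPS13-D716H, 246 in mmm1Δ replicate 2 and 697 in the double mutant. The 4 subunits of succinate dehydrogenase stand in both lists. ATP synthase had 2 of 15 genes higher, near the 11.7% of all genes, and a median of 0.58. INH1, its inhibitor, reached 1381 from 465, and is a short gene of 258 nt. Mitochondrial ribosomal proteins had 1 of 54 genes higher and a median of 0.37, and import into mitochondria had 0 of 27 past 2-fold and a median of -0.05. In the respiratory chain STRE was in 14 of 28 windows (against 22.9% of all) and CCAAT, the box of the Hap2 to Hap5 complex, in 22 (78.6%, against 42.9%).

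Genes for the uptake and use of glucose lay far from WT in both directions. HXT1, a low-affinity glucose transporter that high glucose induces, was at 530 FPKM in WT, 31.3 in the double mutant and between 331 and 768 in the other 6 libraries, WT among them. Its log2 ratio of -4.04 was the lowest among the genes that were above 0 in both libraries, alone at their locus and at least 300 nt long. High-affinity transporters were the reverse. HXT7 was at 958 in WT, 114 in VPS13-D716H, 259 in mmm1Δ replicate 2 and 7569 in the double mutant, and HXT6 at 903, 115, 266 and 7397. The double mutant was the highest, and WT was the next, so the log2 ratios of 2.98 and 3.03 over WT became 6.04 and 5.99 over VPS13-D716H. HXT6 and HXT7 are nearly identical in sequence, and their reads may not be told apart. HXT4 was at 314 in WT, 85.9 in VPS13-D716H and 1665 in the double mutant.

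Of 9 hexose transporter and sensor genes, 4 were higher and 1 lower, with a median of 0.98. Of 17 genes that glucose represses, 9 were higher and none lower, with a median of 1.17, and 6 were 2-fold above each of the other 6 libraries. Only 15 of the list passed the filter in VPS13-D716H over WT and in mmm1Δ replicate 2 over WT. Some members were thus compared here only because of their value in the double mutant. HXK1, a hexokinase that is repressed by glucose, was at 629 FPKM in WT, 90.7 in VPS13-D716H, 565 in mmm1Δ replicate 2 and 6953 in the double mutant, and shares its locus. SUC2, invertase, was at 117, 77.9, 90.7 and 562 in the same order. ALD4, the mitochondrial aldehyde dehydrogenase, was at 93.3 in WT and 786 in the double mutant. Genes of the glyoxylate cycle and of gluconeogenesis, named here after their values were seen, were less far from WT: ICL1 was at 27.9 and 53.5, and FBP1 at 21.2 and 42.2. MPC3, a subunit of the mitochondrial pyruvate carrier, was at 18.7 in WT, 16 in VPS13-D716H, 26.2 in mmm1Δ replicate 2 and 206 in the double mutant, but its log2 ratio over WT replicate 1, centred, was -0.85.

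All 24 genes of the general stress list, targets of Msn2 and Msn4, were at least 2-fold higher, with a median log2 ratio of 2.41, and 17 were 2-fold above each of the other 6 libraries. HSP12, a small membrane-protecting protein, was at 44.5 FPKM in WT, 27.0 in VPS13-D716H, 349 in mmm1Δ replicate 2 and 1011 in the double mutant, a ratio of 4.47. HSP26, a small heat shock protein, was at 25.2, 37.1, 838 and 376 in the same order, so that here mmm1Δ was the highest. CTT1, cytosolic catalase, was at 28.7, 13.0, 15.3 and 132. STRE was in 21 of the 24 windows (87.5%) against 22.9% of all, a share that follows from the choice of Msn2 and Msn4 targets for the list. SPG4, a gene known from stationary phase, was at 8.52 in WT, 1.19 in VPS13-D716H, 5.73 in mmm1Δ replicate 2 and 215 in the double mutant, and the other 3 libraries lay between 0 and 6.80. The median of the stress list was 3.24 over VPS13-D716H and 3.17 over WT replicate 1.

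Glycogen and trehalose genes, a list added after values had been seen, had 18 of 22 members higher and a median of 1.68. GPH1, glycogen phosphorylase, was at 101 FPKM in WT, 10.9 in VPS13-D716H, 54.9 in mmm1Δ replicate 2 and 703 in the double mutant, at a shared locus. GDB1, the debranching enzyme, was at 11.6, 3.28, 6.44 and 73.6 in the same order. GLC3, the branching enzyme of glycogen synthesis, named here after its values were seen, was at 83.8, 21.5, 84.0 and 379. Of the 22 genes, 9 are in the general stress list as well. Autophagy, another list added then, had 9 of 20 genes higher and a median of 0.85, with ATG8, the ubiquitin-like protein of the autophagosome, at 161 in WT and 417 in the double mutant. Fewer autophagy genes passed the filter in the single mutants over WT, 17 in mmm1Δ replicate 2 and 16 in VPS13-D716H.

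Protein quality control was less uniform. Of 18 heat shock genes 5 were higher and 1 lower, with a median of 0.34. HSP42 was at 160 FPKM in WT, 139 in VPS13-D716H, 224 in mmm1Δ replicate 2 and 634 in the double mutant, and HSP104, the disaggregase, at 114, 161, 391 and 411. None of 32 proteasome genes was past 2-fold, with a median of 0.27. Of 15 genes of the unfolded protein response of the endoplasmic reticulum 1 was lower, SCJ1, at 83.0 in WT and 36.8 in the double mutant, and the median was -0.15.

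**Figure D3:**
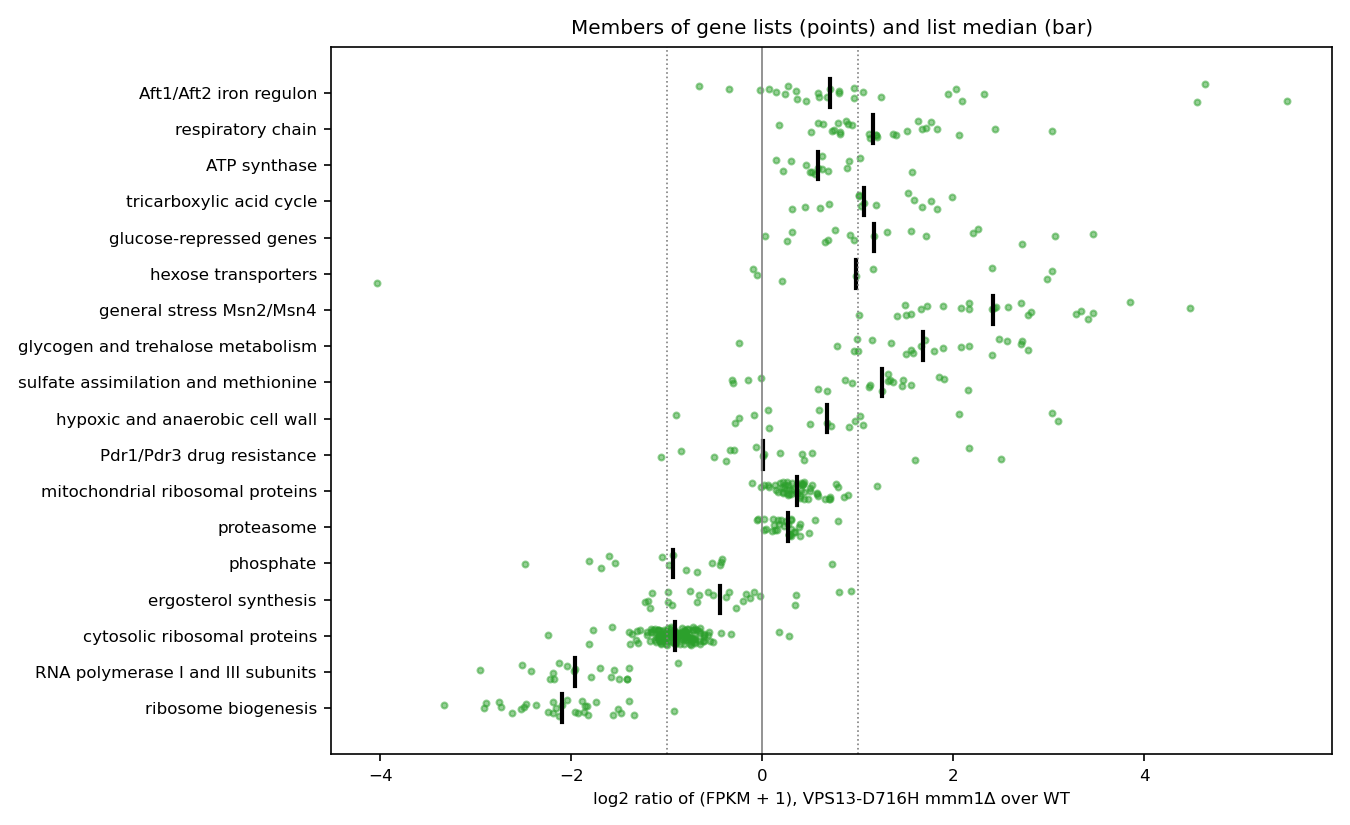
Log2 ratio of (FPKM + 1) in the double mutant over WT (horizontal axis) for the compared members (points, spread vertically for sight) of 18 gene lists, with the list median (bar) and dotted lines at 2-fold. General stress genes lie to the right with a median of 2.41 and ribosome biogenesis to the left with a median of -2.10, while the iron regulon holds 3 points above 4 and a median of 0.71.

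The making of ribosomes was lower. Of 31 ribosome biogenesis genes, 30 were at least 2-fold lower, the median log2 ratio was -2.10, and 27 were 2-fold below each of the other 6 libraries. NOG2, a GTPase of the large subunit, was at 113 FPKM in WT, 131 in VPS13-D716H, 84.7 in mmm1Δ replicate 2 and 10.2 in the double mutant. DBP8, a helicase of the small subunit, was at 72.4, 62.2, 40.4 and 6.42. Every other library of the table lay at 84.7 or more for NOG2 and 40.4 or more for DBP8. RNA polymerase I and III subunits, a list added after values had been seen, had 18 of 19 genes lower and a median of -1.96, and RPA12 was at 795 in WT and 102 in the double mutant. AIR1, of the nuclear RNA surveillance complex, was at 52.2 in WT and 3.54 in the double mutant, and TOD6, a repressor known to bind PAC, was itself at 68.8 and 5.24.

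PAC was in the window of 29 of the 31 ribosome biogenesis genes (93.5%) against 19.8% of all, and RRPE in 27 (87.1%) against 9.71%. Among the 19 polymerase genes PAC was in 16 (84.2%). Both motifs and the polymerase list were added after the values were seen, so these shares only describe the lists. Cytosolic ribosomal proteins were less far from WT than the genes that build ribosomes. Of 137, 49 were lower and none higher, with a median of -0.91, and many of them exist as near-identical pairs whose reads may not be told apart. Their direction depends on the control library: the median was -0.69 over VPS13-D716H and 0.69 over WT in clean YPD. In mmm1Δ replicate 2 over WT, ribosomal proteins had a median of -1.03 and ribosome biogenesis -0.37.

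**Figure D4:**
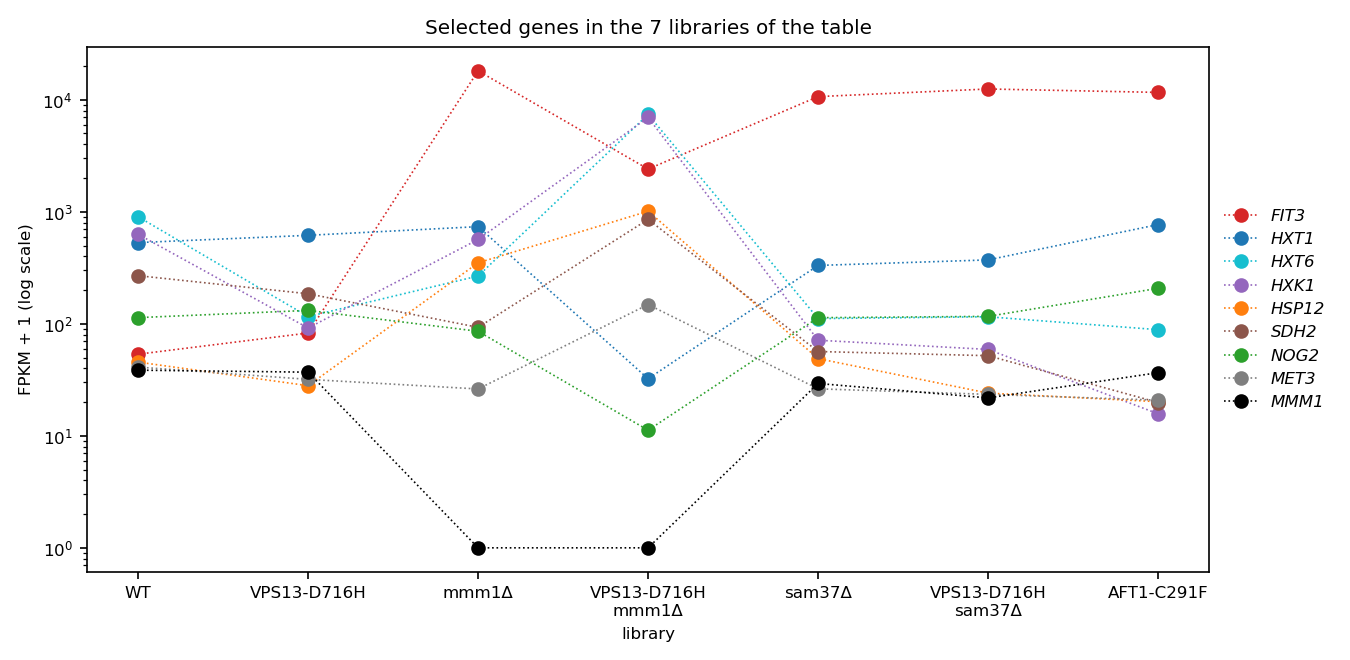
FPKM + 1 on a log scale (vertical axis) of 9 genes in the 7 libraries of the table (horizontal axis), 1 library each; dotted lines join the points of a gene only to guide the eye. In the double mutant HXT1 and NOG2 are lowest and HXT6, HXK1, HSP12, SDH2 and MET3 highest, while FIT3, at 2405 FPKM, is above WT but below mmm1Δ replicate 2, sam37Δ, VPS13-D716H sam37Δ and AFT1-C291F, which lie between 10669 and 18121.

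Sulfur metabolism was higher too. Of 21 genes of sulfate assimilation and methionine synthesis and uptake, 13 were at least 2-fold higher and none was lower, with a median of 1.25. The same number, 13, were 2-fold above each of the other 6 libraries. MET3, ATP sulfurylase, was at 40.1 FPKM in WT, 30.9 in VPS13-D716H, 25.2 in mmm1Δ replicate 2 and 148 in the double mutant. STR3, a cystathionine lyase, was at 21.3, 3.32, 13.7 and 82.5 in the same order. BY4741 lacks MET17 and so takes its sulfur amino acids from the medium, in WT and mutant alike. The general amino acid control list, targets of Gcn4, had 0 of 25 genes past 2-fold and a median of 0.00.

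Phosphate genes were lower in 6 of 15 cases, with a median of -0.94. The list was similar in mmm1Δ replicate 2 over WT, where 7 of 15 were lower and 1 higher, with a median of -0.85. PHO84, the high-affinity phosphate transporter, was at 863 FPKM in WT, 1371 in VPS13-D716H, 813 in mmm1Δ replicate 2 and 245 in the double mutant. PHM6 was at 177, 267, 161 and 30.9. PHO11 and PHO12, which are nearly identical, are counted as 2 of the 6. Ergosterol synthesis had 4 of 24 genes lower and a median of -0.45, against 5 lower and a median of -0.54 in mmm1Δ replicate 2. Among zinc and copper genes the copper-binding metallothionein genes CUP1-1 and CUP1-2, identical copies, were at 5982 and 5491 in WT and 22748 and 21578 in the double mutant, and ZRT1, the high-affinity zinc transporter, was at 422 in WT, 125 in VPS13-D716H, 118 in mmm1Δ replicate 2 and 88.4 in the double mutant. For ZRT1 it is WT that stands above the others, and over WT in clean YPD, centred, its log2 ratio was 0.41.

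Other lists were closer to WT or mixed. Oxidative stress defence had 5 of 20 genes higher and 1 lower, with a median of 0.51; PRX1, the mitochondrial peroxiredoxin, was at 136 FPKM in WT, 103 in VPS13-D716H, 185 in mmm1Δ replicate 2 and 583 in the double mutant. Glycolysis had 2 of 17 higher, near the 11.7% of all genes, and a median of 0.20, with TDH1, the stress-linked glyceraldehyde phosphate dehydrogenase, at 3222 in WT and 9295 in the double mutant. Purine synthesis, a list added after values had been seen, had 4 of 20 genes lower and a median of -0.23, and BAS1, an activator of that pathway, was at 13.0 in WT and 1.13 in the double mutant. Branched-chain and glutamate synthesis had 2 of 15 lower, ILV5 and LEU9, near the 11.6% of all genes, and a median of -0.38. Of 7 ribonucleotide reductase genes 1 was lower, RNR1, at 76.8 in WT and 28.3 in the double mutant. None of 8 histone genes, 9 MATa mating genes, 6 biotin genes or 4 MATα genes was past 2-fold.

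Some genes that were high in mmm1Δ lay near WT in the double mutant. PDR5, the main drug efflux pump under Pdr1 and Pdr3, named here after its values were seen, was at 132 FPKM in WT, 211 in VPS13-D716H, 978 in mmm1Δ replicate 2 and 107 in the double mutant. Its list had 3 of 16 genes higher and 1 lower, with a median of 0.01, against 9 higher and a median of 1.26 in mmm1Δ replicate 2. The list was not uniform: YLR346C, a gene known to respond to blocked mitochondrial import, was at 18.8, 22.9, 725 and 111, a ratio of 2.50 for the double mutant. The list of import stress and quality control, which also holds it, had 2 of 12 higher and a median of 0.43, close to the 3 higher and the median of 0.52 in mmm1Δ replicate 2. Hypoxic and cell wall genes had 5 of 17 higher and a median of 0.68, against 13 and 1.72 in mmm1Δ replicate 2, and the anaerobic mannoprotein gene TIR4, named after its values were seen, was at 8.32, 6.97, 493 and 17.9. HUG1, a small protein gene that DNA damage induces, was at 231, 98.5, 7151 and 148.

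The retrograde list, genes that answer to mitochondrial dysfunction through Rtg1 and Rtg3, had 2 of 11 genes higher and a median of 0.38, against 5 higher and a median of 0.48 in mmm1Δ replicate 2. CIT2, a citrate synthase of peroxisomes by which this pathway is commonly followed, named after its values were seen, was at 69.9 FPKM in WT, 69.7 in VPS13-D716H, 279 in mmm1Δ replicate 2 and 91.3 in the double mutant. IDH1, a subunit of isocitrate dehydrogenase, was at 228, 259, 1587 and 371. In these 2 genes, though not in the median of the list, the double mutant was far nearer to WT than to mmm1Δ.

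Genes of contact sites and lipids differed from WT in a few members. Besides MMM1, 1 of the 7 ERMES and partner genes was past 2-fold, TOM7, which was at 1626 FPKM in WT, 2966 in VPS13-D716H, 3180 in mmm1Δ replicate 2 and 3657 in the double mutant, with WT the lowest. MDM34 and MDM12 had ratios of 0.64 and 0.43. Of 10 genes for Vps13 adaptors and vacuole contacts 2 were higher, 9 had a ratio above 0, and the median was 0.66. MCP1, the mitochondrial adaptor of Vps13, was at 49.9 in WT, 41.5 in VPS13-D716H, 43.2 in mmm1Δ replicate 2 and 112 in the double mutant, above each of the other libraries. FMP27 was at 3.29 in WT and 8.16 in the double mutant, near the lower limit, and passed it only through the double mutant. Of 20 phospholipid genes 2 were higher, also near the 11.7% of all genes, and the median was 0.23. They were OPI3, the last methyltransferase of phosphatidylcholine synthesis, at 381 in WT and 1098 in the double mutant, and MDM35, a partner of lipid carriers between the mitochondrial membranes, at 348 and 825. Over WT replicate 1, centred, the direction turned, with log2 ratios of -0.73 for OPI3, -0.67 for MDM35 and -0.49 for TOM7.

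The deletion of MMM1 can be read in both VPS13 backgrounds from pairs that share no library, mmm1Δ replicate 2 over WT and the double mutant over VPS13-D716H. The siderophore transporters had medians of 4.74 in the first pair and 0.53 in the second, and the whole iron regulon 1.95 and 0.29. The general stress list had 0.64 and 3.24, and ribosome biogenesis -0.37 and -2.08. For the respiratory chain the medians were opposite in sign, -1.55 and 1.44. Whether these differ beyond the spread between cultures could not be tested with 1 library each.

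**Figure D5:**
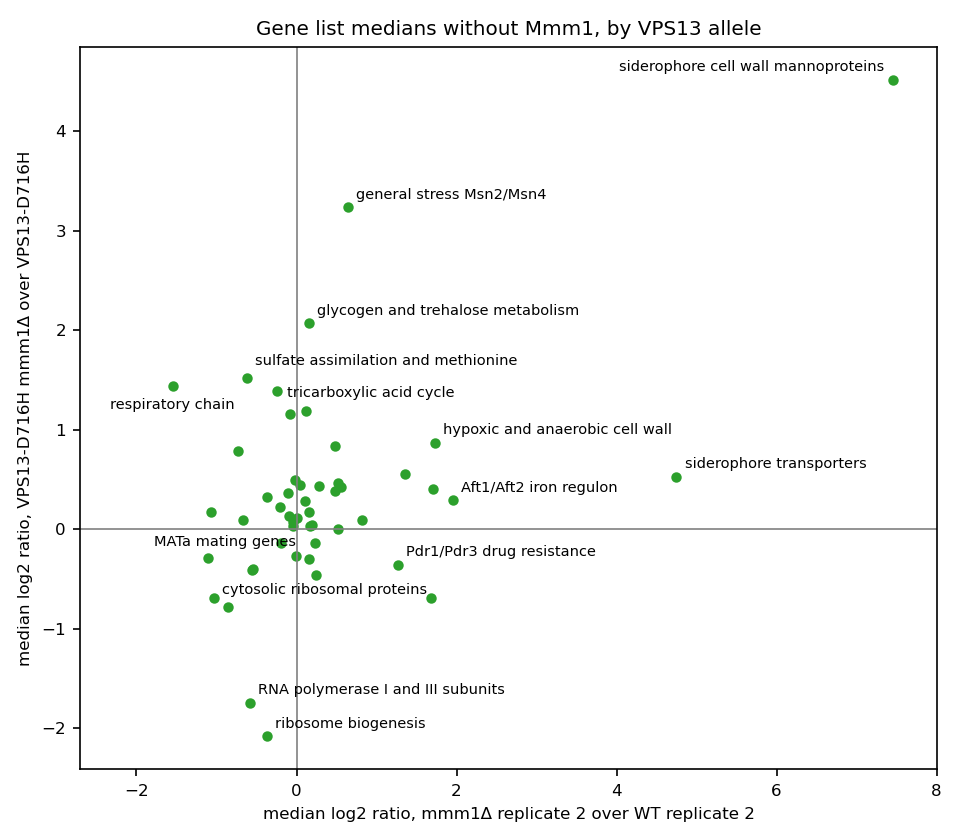
Median log2 ratio of each gene list (points) for mmm1Δ replicate 2 over WT replicate 2 (horizontal axis) and for the double mutant over VPS13-D716H (vertical axis), 4 libraries in all. The iron regulon lies at 1.95 and 0.29, general stress at 0.64 and 3.24, and the respiratory chain at -1.55 and 1.44.

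Comparisons in the other tables share no library with the double mutant and its WT. In mmm1Δ replicate 1 over WT replicate 1, 8.28% of genes were higher and 15.8% lower. Of the 385 of these higher genes that were compared here too, 98 (25.5%) were higher in the double mutant, where 10.7% of the 4963 genes in both were. These 98 were 18.5% of the 529 genes higher in the double mutant. Of the 783 lower there, 105 (13.4%) were lower in the double mutant, where 13.6% of all were. In mdm34Δ, which lacks another ERMES subunit, 11.8% were higher and 23.4% lower, and 95 of 580 higher genes (16.4%, against 10.5% of all) were higher in the double mutant and 122 (21.0%, against 13.5%) were lower.

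With the chelator BPS, 3.18% of genes were higher and 3.91% lower than in clean YPD. Of the 175 higher genes that were compared here too, 54 (30.9%) were higher in the double mutant, where 10.9% of the 6087 genes in both were. Of the 233 genes lower with BPS, 87 (37.3%, against 10.9% of all) were higher in the double mutant and 21 (9.01%, against 11.6%) lower. With BPS over clean YPD the regulon's median was 2.23, and the respiratory chain -1.61, which in the double mutant over WT were 0.71 and 1.16. The part of growth stage or of glucose left in the culture in these differences was not tested. The OD600 range in the labels is that of the protocol and does not show the growth stage or the glucose left in either culture.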

How the data were processed

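The authors deposited FPKM values per gene in 3 tables, per the file headers, with a gene length in nucleotides as a column of other kind. TopHat2 2.0.8, Cuffdiff 2.0.2 and the build sacCer3 are named per the submitters' processing notes, with no roles or settings. The labels' protocols name TruSeq v2 and KAPA stranded kits without assigning them to libraries. Every value column was mapped to a sample by its name, and 0 columns were left over. The table column named as the second BY4741 replicate was taken as WT replicate 2, although that sample's description names another table.

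Depth is unknown: of 50 low values in each library, 6 to 14% were whole multiples of the smallest to within 0.05, which does not allow reads to be recovered or a counting error to be given. Between 111 and 243 genes per library of the table were at 0, and the median FPKM was 40.2 to 44.3. Ratios were computed within the table with a pseudocount of 1, which understates the change of low genes, for genes whose FPKM averaged 5 or more in the compared libraries. A gene low in WT could thus pass this filter through its value in the double mutant. A ratio of 2-fold was called higher or lower, with no test (Python 3.11.15, pandas 2.3.3, numpy 2.4.6). Identifiers of 5986 genes matched assembly R64, of which 5365 had the same locus ends. Shared loci hold 1304 genes, and 434 genes are under 300 nt.

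The comparison, its gene lists and motifs were chosen with earlier results of these data known. Lists come from general knowledge, the ribosomal ones from name patterns. The glycogen and trehalose, polymerase, purine and autophagy lists and the PAC and RRPE motifs were added after the values were seen. The rule for naming genes took all members of the iron regulon, MMM1 and VPS13, and up to 4 members of each other list by size of ratio. It also took the 12 highest and 12 lowest ratios among genes above 0 in both libraries, alone at their locus and at least 300 nt long. Not all genes taken from the other lists and the extremes are printed, but counts of named genes below cover the whole set. Other genes are named as chosen later or because a marker or comparison needed them. Alternatives were other pseudocounts, filters and scalings, other control libraries and, chosen after seeing the data, the mean of WT replicate 2 and VPS13-D716H as control.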

Additional observations from a re-analysis of the deposited data

Results flagged for a closer look

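In 2 pairs without a common library, mmm1Δ replicate 2 over WT replicate 2 and the double mutant over VPS13-D716H, some results lay past 2-fold in opposite directions; with 1 library each, the difference was not tested. The median log2 ratio of the respiratory chain was -1.55 in the first pair and 1.44 in the second. Of 6125 genes compared in both pairs, 69 were lower in the first and higher in the second, and 35 were higher in the first and lower in the second.

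Among the genes named by rule, 11 were of this kind. Of the respiratory genes, COX26 had log2 ratios of -3.35 and 4.71, SDH1 of -1.87 and 2.74, SDH2 of -1.53 and 2.21, and INH1 of -1.53 and 1.76. COX26 and INH1 are short genes, of 201 and 258 nt, so their ratios are less certain. Of the glucose transporters, HXT7 had -1.88 and 6.04, HXT6 -1.76 and 5.99, and HXT4 -1.19 and 4.26. MMP1, which takes up S-methylmethionine, had -1.40 and 2.10, and the MATa-specific gene ASG7 had -1.10 and 1.05. The iron uptake genes were the reverse, FTR1 with 2.31 and -1.55, and FRE1 with 1.54 and -2.02. WT was higher than VPS13-D716H for the 3 transporters and for COX26, SDH1 and SDH2, and lower for FTR1 and FRE1. This difference between the controls bears on the size of both ratios.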

How the results depend on the processing

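No paired analysis was possible because the double mutant has 1 library, and no replicate could be left out. A list or gene was taken as moved when it shifted by over 1.5-fold, a count when it changed by over 1.5 times. With other pseudocounts, filters and scalings, and with the trend with abundance and length removed, the counts and the medians of the iron regulon, stress, respiratory, glucose-repressed, sulfur and ribosome biogenesis lists did not move. With VPS13-D716H as control 3 list medians moved. The siderophore transporters had a median of 0.53, general stress 3.24, and high-affinity iron uptake and copper supply -0.70. With the mean of WT replicate 2 and VPS13-D716H, chosen after seeing the data, the transporters had 0.97. WT libraries of other tables, centred on the median gene, moved more. Those tables were normalized separately. With WT replicate 1, 120 named genes moved, 11 changed sign and 68 stayed. Of the list medians, 17 moved and 33 stayed. With WT in clean YPD, 89 named genes moved, 2 changed sign and 116 stayed, and 11 list medians moved and 39 stayed. WT replicate 1 gave 1221 genes higher and 1621 lower, and medians of 1.99 for the FIT genes, 0.076 for the transporters, 0.093 for the iron regulon and 3.17 for general stress. WT in clean YPD gave 1149 higher, and 3.01 for the FIT genes, 0.85 for the transporters and 2.50 for the respiratory chain. Genes that changed sign with WT replicate 1 were SIT1 (-0.086), MPC3 (-0.85), ENO1 (-0.13), ANB1 (-0.75), OPI3 (-0.73), MDM35 (-0.67), MMP1 (-0.63), TOM7 (-0.49), PDR16 (0.13), MRPS12 (-2.38) and OYE3 (-1.63), and with clean YPD ZRT1 (0.41) and RPL33B (0.22). The causes were not tested.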
